A study of Homo sapiens with 4 samples.

Results

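The SMAD family mRNAs were described in PAR-CLIP data for DHX36, a DEAH-box helicase that unwinds G-quadruplexes, the 4-stranded structures that G-rich nucleic acids can fold into. PAR-CLIP crosslinks a protein to RNA that carries 4-thiouridine, and the reads that come out of it carry T-to-C changes at the crosslinked positions. The members were the rows of the deposited gene table named SMAD1, SMAD2, SMAD3, SMAD4, SMAD5, SMAD6, SMAD7 and SMAD9, which are 8 of the 26490 listed genes, and their positions are given on GRCh37. Both groups were stable Flp-In T-REx lines of HEK293, an embryonic kidney cell line, in which tetracycline (500 ng per ml, 15 h) switched on DHX36 with a FLAG/HA tag, and the cells were irradiated at 365 nm for 5 min after growth with 4-thiouridine. One line made FH-DHX36 (isoform 2) and the other FH-DHX36-E335A (isoform 1 with a change that leaves the helicase inactive), so the effects of isoform and mutation cannot be told apart. The tagged protein was made on top of the DHX36 that HEK293 cells have themselves, and no line without a tagged protein was among the samples analysed here.

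Each line was sampled in 2 replicates, and the table holds 1 value per gene and line. No test between the lines could be made, and no value below carries an error between replicates. Intervals are 95% intervals that cover counting error only, and overlapping reads from amplified libraries are not independent molecules. The table held 8752127 crosslinked reads for FH-DHX36-E335A and 2160413 for FH-DHX36, counted in clusters of overlapping reads only, so a value of 0 means that no cluster was called. Of 6 genes that HEK293 cells are known to express, 3 had a FH-DHX36-E335A cluster and 2 a FH-DHX36 cluster, against 0 of 6 genes of blood, liver and muscle in either.

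SMAD proteins carry signals from the receptors of the TGF-beta superfamily to the nucleus. Receptor-regulated SMADs are phosphorylated by type I receptors, SMAD2 and SMAD3 mainly after TGF-beta and activin and SMAD1, SMAD5 and SMAD9 after BMPs, and then join the common SMAD4 to act on transcription. The inhibitory SMAD6 and SMAD7 are induced by the pathway and oppose it, SMAD6 chiefly on the BMP branch and SMAD7 on both.

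The G-rich stretches of the SMAD transcripts are shown first, because G-rich RNA is what this helicase is known to bind. The paper also found short A/U-rich sequences enriched in the FH-DHX36-E335A binding sites. A match was 4 or more runs of at least 2 G with 1 to 7 bases between runs, on the sense strand, in the canonical GENCODE transcript on GRCh37, and the runs are in capitals. The table gives no cluster positions, so a match is a property of the sequence and was not tied to a binding site. The first 5 lie in the 3'UTRs of SMAD3 and SMAD5, and those of SMAD5 are all the matches of its 3'UTR. The SMAD4 and SMAD6 3'UTR stretches and the SMAD7 5'UTR stretch are shown because they hold at least 4 runs of at least 3 G, and they are parts of longer matches of 43, 37 and 39 nt. The 5'UTRs of SMAD2, SMAD3 and SMAD4 and the 3'UTR of SMAD2 also held such a stretch, not shown. The SMAD6 5'UTR and SMAD7 CDS stretches are shown because most FH-DHX36-E335A reads on those mRNAs lay in those regions. They are examples from the 5 and 8 matches there.
SMAD3 3'UTR, chr15:67483435-67483451, plus strand: GGGatGGGGaGGGaGGG
SMAD5 3'UTR, chr5:135514501-135514516, plus strand: GGGaGGctgaGGcaGG
SMAD5 3'UTR, chr5:135514666-135514683, plus strand: GGGaGGcGGaGGttgtGG
SMAD5 3'UTR, chr5:135517104-135517124, plus strand: GGGtagtaGGtagcctGGtGG
SMAD5 3'UTR, chr5:135517170-135517185, plus strand: GGtGGtttataGGtGG
SMAD4 3'UTR, chr18:48610864-48610892, plus strand: GGGGctGGGttgaGGGtGGGGGGttGGGG
SMAD6 3'UTR, chr15:67073887-67073902, plus strand: GGGaGGGGcGGGtGGG
SMAD6 5'UTR, chr15:66994734-66994756, plus strand: GGGaccccGGGGccaccGGGaGG
SMAD6 5'UTR, chr15:66995160-66995177, plus strand: GGcaaGGtaaaGGcaGGG
SMAD6 5'UTR, chr15:66995534-66995556, plus strand: GGGaacGGacccccGGtaaccGG
SMAD7 5'UTR, chr18:46477044-46477067, minus strand: GGGcgcGGGccgcgcGGGGtGGGG
SMAD7 CDS, chr18:46448029-46448049, minus strand: GGGaGGtGGatGGtgtgtGGG

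All 8 SMAD mRNAs had a cluster with FH-DHX36-E335A and 7 of 8 had one with FH-DHX36, where SMAD1 had none. Of all listed genes, 34.5% had a FH-DHX36-E335A cluster and 22.4% a FH-DHX36 cluster. The listed genes include genes of other tissues and antisense genes, and no share among expressed genes was computed. The family held 125 clusters and 12591 crosslinked reads with FH-DHX36-E335A, which is 1439 reads per 1000000 crosslinked reads (RPM), and 26 clusters and 1212 reads with FH-DHX36, which is 561 RPM. SMAD3, SMAD4 and SMAD5 together carried 83.8% of the FH-DHX36-E335A reads of the family and 77.8% of its FH-DHX36 reads. The plot of RPM shows these members in the upper range in both PAR-CLIPs. SMAD1 (16.1 RPM), SMAD6 (25.6) and SMAD9 (29.6) were the lowest with FH-DHX36-E335A. With FH-DHX36, SMAD9 (8.79) was the lowest member with a cluster.

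**Figure D1:**
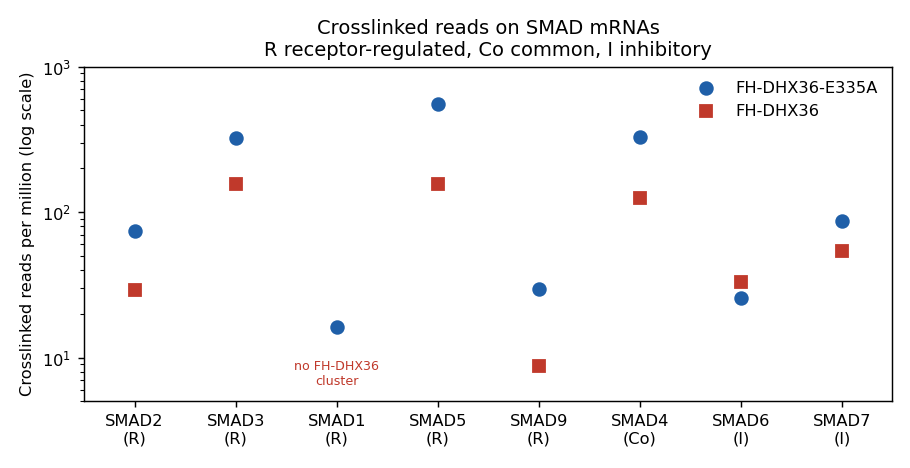
RPM (log axis) on each SMAD mRNA, 1 authors' value per line, blue circles for FH-DHX36-E335A and red squares for FH-DHX36. SMAD5 was highest with FH-DHX36-E335A (556 RPM), and SMAD6 was the member whose FH-DHX36 value (32.9) lay above its FH-DHX36-E335A value (25.6).

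Among the receptor-regulated SMADs of the TGF-beta and activin branch, SMAD3 (chr15:67357940-67487507, plus strand) carried more reads than SMAD2 (chr18:45335328-45457030, minus strand). SMAD3 had 14 clusters and 2821 reads (322 RPM) with FH-DHX36-E335A but 5 clusters at 155 RPM with FH-DHX36. SMAD2 had 11 clusters and 651 reads, against 2 clusters and 63 reads. SMAD3 and SMAD6 were the 2 members with no CDS cluster in either PAR-CLIP.

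With FH-DHX36-E335A, 2076 SMAD3 reads lay in the 3'UTR, 55 in introns and 690 (24.5% of its reads) in clusters outside the 4 named categories (both UTRs, CDS and intron), and all of its exonic reads were in the 3'UTR, where the 3'UTR makes up 71.7% of the canonical transcript. With FH-DHX36, 247 reads (73.7% of its reads) were intronic, in 2 clusters, while 68 lay in the 3'UTR and 20 in the 5'UTR. SMAD2 reads with FH-DHX36-E335A were split over 51 5'UTR, 204 CDS and 396 3'UTR reads. With FH-DHX36, SMAD2 had 39 reads in the 5'UTR and 24 in the 3'UTR. The 3'UTR thus held 60.8% of SMAD2 exonic reads with FH-DHX36-E335A (57.0 to 64.5%), although it is 94.9% of the canonical transcript, at 32870 nt.

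Of the BMP branch, SMAD5 (chr5:135468534-135518421, plus strand) had the most reads and SMAD1 (chr4:146403005-146480328, plus strand) the fewest. SMAD5 had 49 clusters with FH-DHX36-E335A, which ranked it 10 among all listed genes by clusters and 309 by reads, with 4864 reads. Of these, 79 were 5'UTR, 1048 CDS and 3580 3'UTR reads, and 157 lay outside the 4 categories. With FH-DHX36 it had 10 clusters and 339 reads, of which 61 were CDS, 239 3'UTR and 39 intron reads. The 3'UTR share of its exonic reads was 76.1% with FH-DHX36-E335A (74.8 to 77.3%), beside a 3'UTR that is 74.9% of its length.

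SMAD9 (chr13:37418968-37494375, minus strand) also had few reads. SMAD9 had 8 clusters and 259 reads with FH-DHX36-E335A, 32 CDS and 227 3'UTR reads, and 1 CDS cluster of 19 reads with FH-DHX36. SMAD1 had 4 clusters and 141 reads with FH-DHX36-E335A, 58 of them 5'UTR, 36 CDS and 47 3'UTR reads. No FH-DHX36 cluster was called on SMAD1, and reads outside clusters are not in the table, so that no fold was computed for it.

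The common SMAD4 (chr18:48556583-48611412, plus strand), the shared partner of both branches, had 28 clusters and 2868 reads with FH-DHX36-E335A and 5 clusters and 269 reads with FH-DHX36. The FH-DHX36-E335A reads comprised 231 5'UTR, 248 CDS and 1703 3'UTR reads and 686 (23.9%) outside the 4 categories. The FH-DHX36 reads comprised 48, 40, 74 and 107 in the same order. The 3'UTR share of its exonic reads was 78.0% with FH-DHX36-E335A (76.3 to 79.7%), close to the 74.95% of its transcript that is 3'UTR.

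The inhibitory SMAD6 (chr15:66994574-67075187, plus strand) and SMAD7 (chr18:46446223-46477335, minus strand) had the lowest 3'UTR shares of the family with FH-DHX36-E335A, at 9.82% and 18.1% of exonic reads. SMAD6 had 4 clusters and 224 reads with FH-DHX36-E335A, 202 of them in the 5'UTR, 22 in the 3'UTR and 0 in the CDS. With FH-DHX36 its 71 reads formed 1 cluster in the 5'UTR. The 5'UTR held 90.2% of its exonic reads with FH-DHX36-E335A (85.6 to 93.4%) but is 26.7% of its length.

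SMAD7 had 7 clusters and 763 reads with FH-DHX36-E335A, 51 of them 5'UTR, 574 CDS and 138 3'UTR reads, so the CDS held 75.2% of them (72.0 to 78.2%) and is 38.3% of its length. With FH-DHX36 it had a 5'UTR cluster of 35 reads and a cluster of 81 reads outside the 4 categories, and none in the CDS. Over both inhibitory members the 3'UTR held 16.2% of exonic reads with FH-DHX36-E335A (14.0 to 18.6%), against 80.8% (79.9 to 81.6%) over the receptor-regulated members. The receptor-regulated members did not all follow their sum, to which SMAD5 and SMAD3 gave most reads: SMAD1 had 33.3% with FH-DHX36-E335A. The 3'UTR is 34.3% of the SMAD6 and 45.5% of the SMAD7 transcript, and the inhibitory values rest on 11 clusters. With FH-DHX36, 0 of the 106 exonic reads on the inhibitory members, in 2 clusters, and 70.4% of those on the receptor-regulated members were in the 3'UTR, where SMAD9 had 0.

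**Figure D2:**
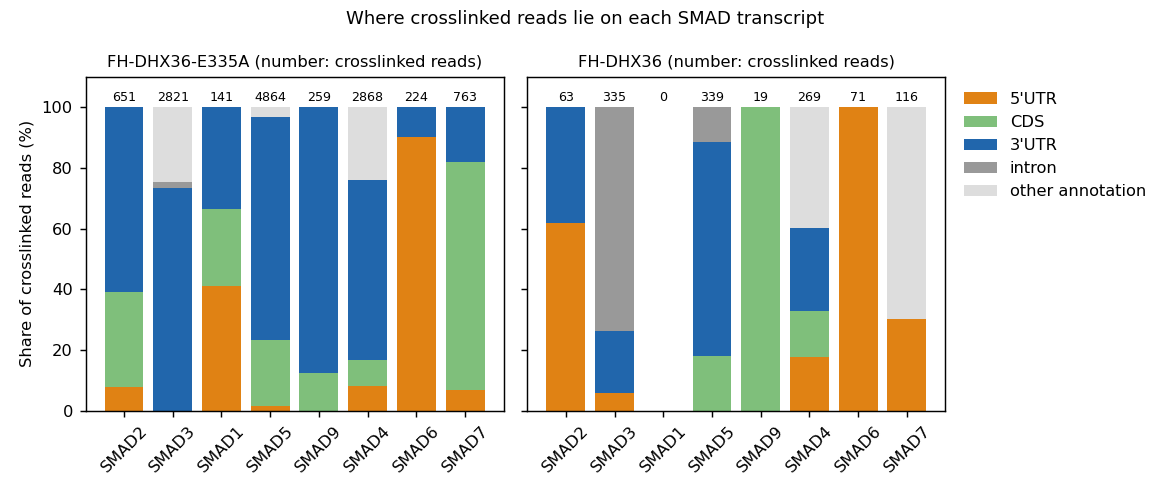
Share of each member's crosslinked reads by category (UTRs, CDS, introns and other annotation) (stacked bars, percent), for FH-DHX36-E335A on the left and FH-DHX36 on the right, with the number of reads above each bar. The 5'UTR leads on SMAD6 in both, the CDS on SMAD7 with FH-DHX36-E335A, and introns on SMAD3 with FH-DHX36.

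Taken over the family, the 3'UTR share of exonic reads was near that of all genes. It was 74.4% with FH-DHX36-E335A (73.6 to 75.2%) against 71.9% over all genes, and 54.9% with FH-DHX36 (51.3 to 58.4%) against 51.4%. Without SMAD5 the FH-DHX36 share was 37.9% and the FH-DHX36-E335A share 73.2%. The mean of the members' own shares was 58.0% for FH-DHX36-E335A and 34.4% for FH-DHX36.

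The 3'UTR held over 50% of exonic reads for 5 of 8 members with FH-DHX36-E335A, against 64.0% of all genes with exonic reads, and for 2 of 7 with FH-DHX36 (SMAD3 and SMAD5), against 47.8%. A 5'UTR cluster was present on 6 of 8 members with FH-DHX36-E335A, where 21.8% of genes with exonic reads had one, and on 5 of 7 with FH-DHX36, where 22.0% had one. The canonical 5'UTRs of the members were 309 to 1023 nt long, against a median of 136 nt over all protein-coding genes. Bound members had a median of 9.5 FH-DHX36-E335A clusters, against 5 over all bound genes, and of 2 against 2 with FH-DHX36. The counts were not adjusted for 5'UTR length or number of clusters. SMAD9 had a 5'UTR cluster in neither PAR-CLIP, and SMAD2, SMAD4, SMAD6 and SMAD7 had one in both.

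The authors' NXPM, the RPM divided by the mRNA's abundance in HEK293 RNA-seq, sets binding against how much of each mRNA was there. With FH-DHX36-E335A, SMAD3 had the highest NXPM of the family at 166 (159 to 172), rank 256 of all listed genes. SMAD4 was at 83.6 (80.60 to 86.8) and SMAD5 at 78.6 (76.4 to 80.83), and these intervals overlapped. SMAD5 thus led by reads and SMAD3 by NXPM, and the abundance that the table implies was 7.07 for SMAD5 and 1.95 for SMAD3, on the scale of the authors' RNA-seq.

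The other members lay lower, at 21.5 for SMAD7 (20.0 to 23.1), 12.9 for SMAD9 (11.4 to 14.6), 11.2 for SMAD2 (10.4 to 12.1), 10.3 for SMAD6 (8.997 to 11.7) and 6.75 for SMAD1 (5.69 to 7.97). The counting intervals of SMAD9, SMAD2 and SMAD6 overlapped, and their order was not tested. NXPM above 50 was reached by 3 of 8 members, against 11.2% of genes with a cluster, and more than 20 clusters by 2 of 8 (SMAD4 and SMAD5), against 4.40%. The NXPM cutoff of 50 is not the paper's, and it lies in the gap between SMAD5 (78.6) and SMAD7 (21.5). The count depends on it: SMAD3 alone passes the higher NXPM cutoff that the paper uses for its top targets.

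With FH-DHX36 the order was SMAD3 at 79.6 (71.3 to 88.6), SMAD4 at 31.8 (28.1 to 35.8), SMAD5 at 22.2 (19.9 to 24.7), SMAD7 and SMAD6 both at 13.2, SMAD2 at 4.40 (3.38 to 5.63) and SMAD9 at 3.84 (2.31 to 5.999). SMAD7 and SMAD6, and SMAD2 and SMAD9, could not be ordered within their intervals. The median over members with a cluster was 17.2 with FH-DHX36-E335A, against 5.66 over all genes with a cluster, and 13.2 with FH-DHX36, against 7.84. By reads these medians were 707 against 326 with FH-DHX36-E335A and 116 against 121 with FH-DHX36. The implied abundance had a median of 5.89 over genes with a FH-DHX36-E335A cluster. SMAD2 (6.62) and SMAD5 (7.07) lay above that median and the other members below it, and a low abundance raises NXPM. Within the 5'UTR category, where the authors scaled to 5'UTR reads alone, SMAD6 reached an NXPM of 241 with FH-DHX36-E335A. That was rank 201 of all listed genes. With FH-DHX36, SMAD6 reached 166 in this category.

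**Figure D3:**
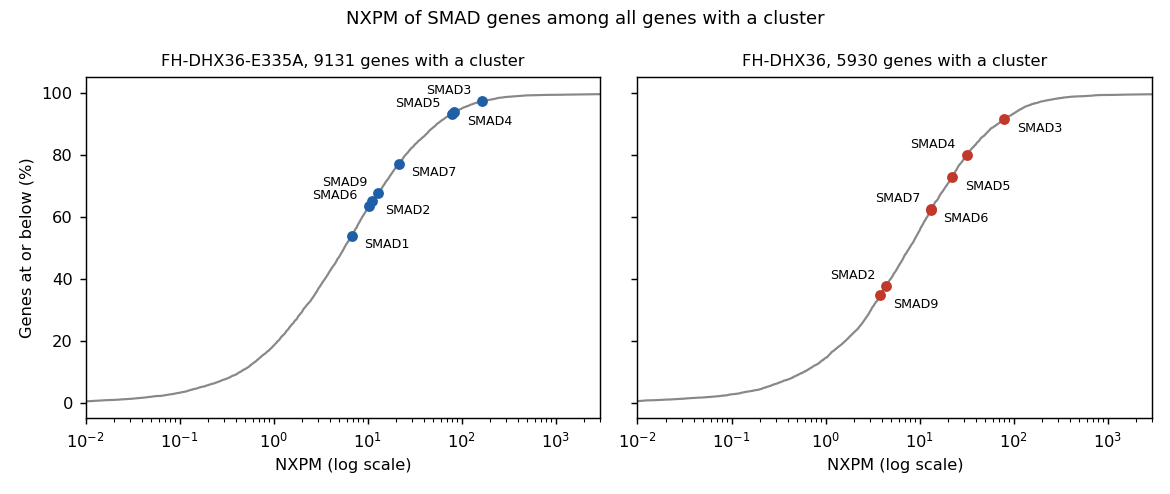
Share of genes with a cluster at or below each NXPM (percent, grey curve) against NXPM (log axis), with the SMAD genes as points, for FH-DHX36-E335A (9131 genes) and FH-DHX36 (5930 genes). SMAD3, SMAD4 and SMAD5 lie at the 97.2, 93.6 and 93.2 percentiles on the left, and SMAD3 at 91.5 on the right.

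The share of all reads that fell on the SMAD mRNAs was larger with FH-DHX36-E335A than with FH-DHX36, by a ratio of 2.56 (2.42 to 2.72) for the family. Per member the ratio was 2.55 for SMAD2 (1.97 to 3.36), 2.08 for SMAD3 (1.86 to 2.33), 3.54 for SMAD5 (3.17 to 3.97), 3.36 for SMAD9 (2.11 to 5.68) and 2.63 for SMAD4 (2.32 to 2.99). SMAD7 had 1.62 (1.33 to 1.99) and SMAD6 0.779 (0.594 to 1.03), an interval that includes equal shares. Over the 5669 genes bound in both experiments the median ratio was 1.09, with quartiles of 0.503 and 2.25, and 53.4% had the larger share with FH-DHX36-E335A, against 6 of 7 SMAD genes.

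The receptor-regulated members together had a ratio of 2.85 (2.65 to 3.08), 3.63 (3.26 to 4.05) for the BMP branch and 2.15 (1.94 to 2.39) for the TGF-beta and activin branch, and the inhibitory members had 1.30 (1.11 to 1.53). By region, the SMAD ratio was 0.779 (0.667 to 0.913) for 5'UTR, 4.41 (3.66 to 5.34) for CDS and 4.99 (4.52 to 5.53) for 3'UTR reads. Over all genes it was 0.484, 0.597 and 1.39. The FH-DHX36 side of the SMAD ratios held 213 5'UTR reads in 5 clusters, 120 CDS reads in 3 clusters and 405 3'UTR reads in 13 clusters. Its CDS reads lay on SMAD4, SMAD5 and SMAD9 only. The ratio depended on the unit counted. By share of clusters it was 1.34 for the family, 1.53 for SMAD2, 1.36 for SMAD5 and 1.56 for SMAD4. For SMAD9 it was 2.22, on 1 FH-DHX36 cluster of 19 reads. The ratio turned to 0.779 for SMAD3, 0.973 for SMAD7 and 1.11 for SMAD6. By share of exonic reads it rose to 5.88 for SMAD3 and 5.43 for SMAD7, whose FH-DHX36 reads lay mostly outside the exonic categories.

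**Figure D4:**
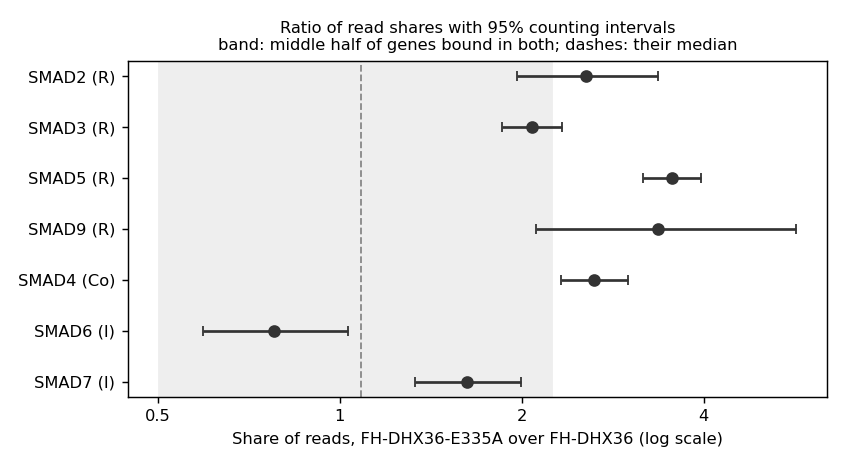
Ratio of each member's share of crosslinked reads, FH-DHX36-E335A over FH-DHX36 (log axis), with 95% counting intervals; the dashed line is the median of genes bound in both (1.09) and the band runs between their quartiles (0.503 and 2.25). SMAD6 alone lies below 1 and SMAD5 is highest at 3.54, and SMAD1 has no ratio.

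Set against length, SMAD5 had the most reads per kb of 3'UTR and few G-run matches there. Crosslinked reads per kb of 3'UTR with FH-DHX36-E335A were 682 on SMAD5, 448 on SMAD3, 259 on SMAD4 and 90.8 on SMAD7. They were 59.0 on SMAD9, 37.8 on SMAD1, 16.7 on SMAD6 and 12.05 on SMAD2. With FH-DHX36 they were 45.5 on SMAD5, 14.7 on SMAD3, 11.3 on SMAD4 and 0.730 on SMAD2, and 0 on the others. SMAD5 was highest in both, and the FH-DHX36 intervals of SMAD3 (11.4 to 18.6) and SMAD4 (8.84 to 14.1) overlapped. Reads per kb are not divided by mRNA abundance. By NXPM within the 3'UTR category, which is not divided by length, SMAD3 led with FH-DHX36-E335A (229), above SMAD5 (109) and SMAD4 (93.2). With FH-DHX36, SMAD3 (42.1) and SMAD5 (40.7) were close on that score. In the CDS with FH-DHX36-E335A, SMAD5 (750.2 reads per kb) and SMAD7 (448) were the highest.

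The 4 matches of the SMAD5 3'UTR, printed above, lie in 5253 nt, a density of 0.761 per kb, and the 3'UTRs of all protein-coding genes held 1.71 per kb. Of 3'UTRs within 20% of its length, 94.0% held a match and 68.0% held at least as many as SMAD5. SMAD4 also had 4 matches (0.608 per kb), SMAD9 and SMAD1 had 1 each, SMAD3 had 9 (1.94 per kb), SMAD7 had 2 and SMAD6 had 3. SMAD2 had 50, in the longest 3'UTR of the family (1.52 per kb), and the lowest number of reads per kb on the canonical transcript. On its shortest annotated 3'UTR, of 10276 nt, it had 2 matches and 38.5 reads per kb, above SMAD6, and on that of SMAD5, of 525 nt, the 4 matches fell to 0. The SMAD5 3'UTR was 66.0% A and T (written as DNA), that of SMAD4 62.4% and that of SMAD3 53.9%, while the less covered SMAD1 and SMAD9 had 66.9% and 63.4%, beside a median of 57.5% over all genes.

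G runs of at least 3 gave 4 matches in SMAD 3'UTRs, 1 each in SMAD2, SMAD3, SMAD4 and SMAD6, and none in SMAD5. The 5'UTRs of SMAD2, SMAD3, SMAD4 and SMAD7 held 1 each as well. Of the inhibitory members, the SMAD6 5'UTR had 5 matches and its CDS 9, and the SMAD7 CDS had 8. Of 5'UTRs of similar length 45.8% had at least as many as SMAD6. Of CDSs of similar length 9.51% had at least as many as SMAD6 and 9.50% at least as many as SMAD7. The SMAD6 CDS had no crosslinked reads in either PAR-CLIP, and the SMAD7 CDS had 574 with FH-DHX36-E335A. Reads per kb of 3'UTR hang on the annotation used: with the shortest annotated 3'UTR for the same coding length the values became 6819 for SMAD5 and 2350 for SMAD1, whose shortest 3'UTR is 20 nt, and SMAD1 passed SMAD3.

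**Figure D5:**
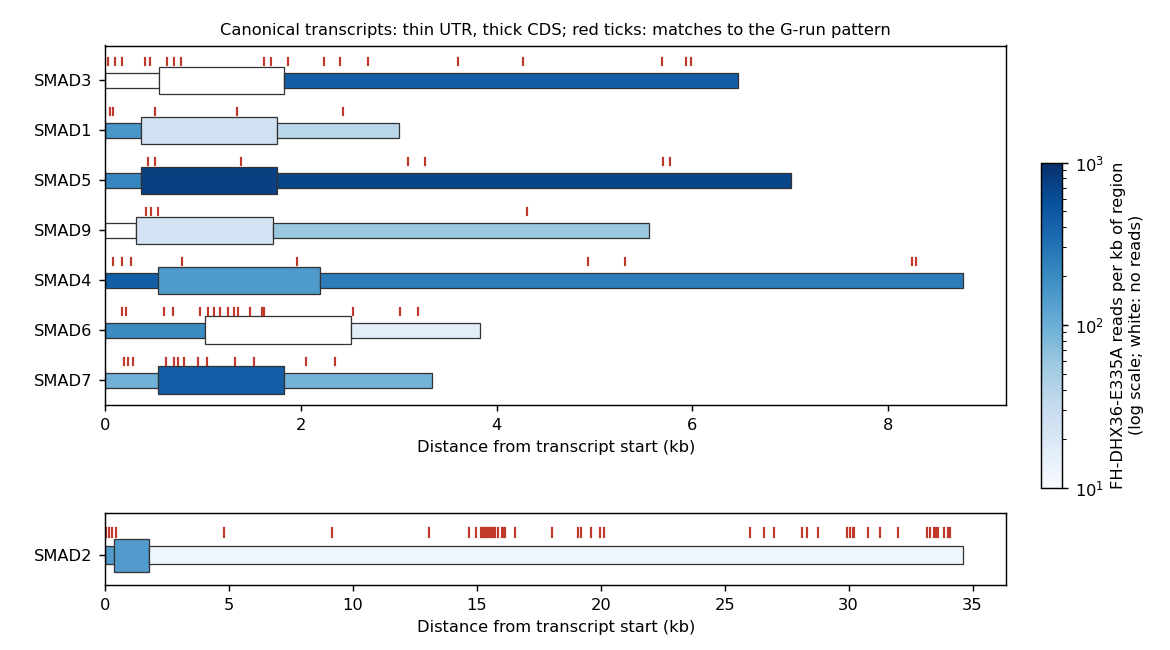
Canonical SMAD transcripts to scale (kb from the transcript start, SMAD2 on its own axis), thin for UTRs and thick for the CDS, shaded by FH-DHX36-E335A reads per kb of region (log scale, white for none), with red ticks at G-run matches. The 3'UTR of SMAD5 is dark (682 reads per kb) with 4 ticks, that of SMAD2 pale (12.05) with 50, and the SMAD6 CDS white with 9. Shading is not corrected for mRNA abundance or base content, and the SMAD6 CDS is 28.3% A and T (median over all genes 47.2%). On the shortest annotated 3'UTRs SMAD5 had 0 matches and SMAD2 had 2.

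The genes whose regional reads were nearest to those of SMAD5, SMAD4 and SMAD7 were found by Euclidean distance over 8 values, log2 of crosslinked reads plus 1 in each of the 4 categories of both PAR-CLIPs. For SMAD7 they were the kinase PBK (distance 0.912), the ubiquitin ligase subunit SKP1 (1.32) and ZFAND6 (1.53), each with more FH-DHX36-E335A reads in the CDS than in any other region and with exonic FH-DHX36 reads in the 5'UTR alone. PBK had 331 CDS reads with FH-DHX36-E335A and 34 5'UTR reads with FH-DHX36. For SMAD4 they were MSANTD4 (1.17), JMY (1.57) and the translation initiation factor subunit EIF2S1 (1.92). For SMAD5 they were the serine synthesis enzyme PSAT1 at 3.37, STC2 at 4.08 and RCC2 at 4.34. Reads outside the 4 categories did not enter the distance. With FH-DHX36 these were 81 of the 116 SMAD7 reads and 107 of the 269 SMAD4 reads. All FH-DHX36 reads of PBK, SKP1 and ZFAND6 were in the 5'UTR.

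Other genes of the pathway were counted by list. Of 65 listed ligands, receptors, partners and target genes, 46 (70.8%) had a FH-DHX36-E335A cluster and 30 (46.2%) a FH-DHX36 cluster, beside 34.5% and 22.4% of all listed genes. That background is not limited to genes expressed in HEK293 cells, so expression alone was not set apart from binding here. The lists were also chosen with earlier results of these data known. The list of partners and regulators stood highest with FH-DHX36-E335A (19 of 20), ahead of receptors (11 of 15), target genes (9 of 15) and ligands (7 of 15). With FH-DHX36 the counts were 12, 9, 6 and 3 in the same order, and the 20.0% of ligands was near the 22.4% of all listed genes.

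The receptor with the most FH-DHX36-E335A reads was the activin type II receptor ACVR2B, with 5562 reads and an NXPM of 725, and with 1321 reads and an NXPM of 697 with FH-DHX36. The type I receptor ACVR1B had 1672 reads and the pseudoreceptor BAMBI 1451, of which 1189 were in the 5'UTR. All 1201 BAMBI reads with FH-DHX36 lay in the 5'UTR.

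Among partners, the corepressor TGIF2 had 6016 FH-DHX36-E335A reads, the phosphatase PPM1A, which acts on receptor-regulated SMADs, 5132 (NXPM 281), and the corepressor SKI 2012. TGIF2 and PPM1A each had more reads than any SMAD. None of these 3 had 5'UTR reads with FH-DHX36-E335A. Among ligands BMP7 had 759, GDF11 497 and INHBB, the activin beta B subunit, 480 with an NXPM of 1321. INHBB had the fewest reads of these 3 and by far the highest NXPM. As NXPM is RPM over abundance, its mRNA was the least abundant of these 3, and a low abundance raises the score. Among target genes ID4, an inhibitor of DNA-binding transcription factors, had 3312, the transcription factor MYC 2001 and the repressor HES1 991.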

How the data were processed

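The authors made PAR-CLIP libraries from 4 samples, 2 replicates of each of 2 HEK293 lines. Per the paper's methods, crosslinked RNA was recovered with FLAG-M2 antibody after RNase T1, reads were mapped to hg19, clusters were called with PARalyzer in PARpipe at default settings, and categories came from GENCODE v19. The submitters' processing notes name bcl2fastq 2.17.1. The paper takes binding sites from the intersection of both replicates of a line, and whether the table holds that set was not tested. Numbers of clusters and of crosslinked reads were deposited by the authors as counts without normalization. NXPM was deposited by the authors as a score, crosslinked reads per 1000000 (RPM) over mRNA abundance from HEK293 RNA-seq. Abundance was recovered here as RPM over NXPM, less a constant of 0.001, and was the same within 0.1% in both PAR-CLIPs for all 5669 genes bound in both. Depth was 8752127 and 2160413 crosslinked reads.

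Shares carry 95% Wilson intervals, NXPM exact Poisson intervals, and ratios conditional binomial intervals, all for counting error only. Transcript lengths, positions and sequences came from GENCODE 44 lifted to GRCh37, the same build as hg19 but a later release than the authors'. The canonical protein-coding transcript was used. Scripts ran in Python 3.11.15 with numpy 2.4.6, pandas 2.3.3, scipy 1.17.1 and matplotlib 3.10.9, and were tested on simulated data. All 8 members were named. Of the pathway lists, the 3 genes with the most FH-DHX36-E335A reads in each were named, and the 3 genes nearest to the member with the most such reads in each SMAD class. Members and lists were chosen with earlier results of these data known. The table lists 3 SMAD antisense genes, with 0 clusters. Whether counting used strand is not given in the sources used here.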

Additional observations from a re-analysis of the deposited data

How the results depend on the processing

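No paired analysis was possible because no column separates the replicates, and leaving out a replicate could not be run for the same reason. The 3'UTR share of exonic SMAD reads moved from 74.4% with FH-DHX36-E335A to 71.2% by clusters, 58.0% as the mean of the members' shares and 73.2% without SMAD5. With FH-DHX36 it moved from 54.9% to 61.9%, 34.4% and 37.9% under the same settings, and to 39.6% with intronic reads in the denominator. The median NXPM with FH-DHX36-E335A was 21.5 over members bound in both PAR-CLIPs. The FH-DHX36 count of pathway genes fell from 30 to 15 when at least 2 clusters were asked for. The family's ratio of read shares was 3.71 by exonic reads, 1.34 by clusters and 2.18 without SMAD5. By clusters the ratio turned direction for SMAD3 (0.779), SMAD6 (1.11) and SMAD7 (0.973). The 74 G-run matches in SMAD 3'UTRs became 121 with up to 12 bases between runs, 4 with runs of at least 3 G and 21 on the shortest annotated 3'UTRs. On those 3'UTRs, the family's reads per kb rose from 143 to 286 with FH-DHX36-E335A and from 7.07 to 14.1 with FH-DHX36. Use of each gene's longest transcript changed no 3'UTR value. Leaving out SMAD5 and the shortest 3'UTRs were chosen after seeing the data. With 1 value per line, the spread between replicates is unknown, and the 19 to 339 FH-DHX36 reads per bound member limit the precision of the ratios more than the FH-DHX36-E335A reads do.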
